A study of Mus musculus with 4 samples.

Results

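The subject is a set of 36 mouse genes of DNA replication and deoxynucleotide synthesis, read in bone marrow-derived macrophages whose Adcy7 gene had been targeted. The members were listed by function: 11 genes of origin licensing, 4 of helicase activation, 5 of the sliding clamp, its loader and single-strand binding, 6 polymerase, primase and strand-joining genes, 5 of nucleotide synthesis, 3 E2F transcription factors and 2 genes of chromatin assembly. They were chosen with earlier results of these data known. Each of the 36 matched 1 Ensembl gene among the 55401 of the count table, and all 36 passed the filter on low counts that left 15832 genes for testing. Poly(A) RNA was sequenced from cultures grown from marrow of C57BL/6J mice, 2 libraries for each of 2 groups. Both groups were given CRISPR-Cas9 lentivirus (multiplicity of infection 30, added on day 1) and matured into macrophages over 5 days. The virus targeted Adcy7, the gene of an adenylyl cyclase, in the Adcy7 knockout group and the Rosa locus, a common neutral target, in the Rosa control group. The labels give no mouse number, guide number or virus preparation, and they do not say whether the replicates were separate cultures, so the p-values measure the spread between these libraries, which may be technical.

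Before a cell copies its DNA, the origin recognition complex, Cdc6 and Cdt1 load the MCM helicase onto replication origins, a step called licensing. Cdc45 and the GINS complex then switch the helicase on, polymerases held by the PCNA clamp copy both strands, and ribonucleotide reductase, thymidylate synthase and thymidine kinase supply the building blocks. E2F transcription factors drive most of these genes as a cell leaves G1, and their mRNA is therefore commonly read as a measure of how many cells are in or near S phase. Marrow macrophage precursors divide under the growth factor Csf1 and slow down as they mature.

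E2F proteins bind short sequences near the start of their target genes, and the E2F letters in the members' own promoters are shown first. Their relation to the changes described below was not tested. RefSeq promoter windows (build GRCm38.p6, 250 bases before to 50 bases after the annotated start) were found for 31 of the 36 genes. The motif searched was TTTCCCGC, TTTGGCGC, TTTCGCGC or TTTGCCGC on either strand, and matches may overlap. It was present in 12 of the 31 genes (38.7%), against 704 of 27025 genes with a window (2.61%). The 12 were Mcm3, Mcm5, Mcm6, Mcm7, Orc1, Cdc6, Cdt1, Rfc3, Pola1, Pold1, Lig1 and E2f2. Below are the bases upstream of the start for 6 of the 7 genes with a match there, read 5′ to 3′ on the gene's strand, with E2F matches in capitals.
Mcm5: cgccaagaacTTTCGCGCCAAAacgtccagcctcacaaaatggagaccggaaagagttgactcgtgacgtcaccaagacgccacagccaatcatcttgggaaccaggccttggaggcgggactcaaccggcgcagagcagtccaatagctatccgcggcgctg
Mcm6: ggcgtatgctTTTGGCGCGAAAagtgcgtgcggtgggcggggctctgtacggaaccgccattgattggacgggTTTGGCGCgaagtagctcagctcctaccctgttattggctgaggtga
Mcm7: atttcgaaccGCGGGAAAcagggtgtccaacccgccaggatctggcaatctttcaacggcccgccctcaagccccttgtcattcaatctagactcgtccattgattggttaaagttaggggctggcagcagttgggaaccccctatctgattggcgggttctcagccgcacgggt
Cdc6: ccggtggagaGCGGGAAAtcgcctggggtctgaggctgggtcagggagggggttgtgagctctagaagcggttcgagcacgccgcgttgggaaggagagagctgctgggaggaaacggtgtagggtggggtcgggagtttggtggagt
Pola1: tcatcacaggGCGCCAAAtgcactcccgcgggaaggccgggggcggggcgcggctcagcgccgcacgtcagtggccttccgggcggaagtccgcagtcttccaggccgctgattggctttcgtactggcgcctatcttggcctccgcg
Orc1: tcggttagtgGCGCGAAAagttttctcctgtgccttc

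These stretches lie at chr8:75109346-75109508 (plus strand), chr1:128359706-128359825 (minus), chr5:138171884-138172058 (minus), chr11:98908003-98908150 (plus), chrX:93632156-93632303 (minus) and chr4:108579417-108579453 (plus) in GRCm38.p6. In Mcm6 the matches begin 110, 106 and 47 bases before the start, and the first of these overlaps the next in a single block. Mcm5 carries the reverse complement of that block, beginning 153 bases before its start. For another 5 genes the match lay after the start only. Of these, Mcm3 had a pair of matches within 30 bases, and Lig1 and Cdt1 had single ones, shown here with their neighbouring bases.
Mcm3: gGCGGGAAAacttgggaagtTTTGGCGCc
Lig1: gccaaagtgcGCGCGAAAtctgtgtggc
Cdt1: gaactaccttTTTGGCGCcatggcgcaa

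They lie at chr1:20820266-20820294 (minus), chr7:13278842-13278869 (plus) and chr8:122568037-122568064 (plus) in the same build. Other promoter letters were spread differently. The CHR motif of late cell cycle genes (TTTGAA or TTCGAA, either strand) was found in 7 of the 31 members (22.6%), in 21.7% of all genes with a window and in 17 of 22 mitosis genes (77.3%). The E2F motif, in turn, was found in 1 of those 22 mitosis genes (4.55%). CCAAT, the letters bound by NF-Y, occurred in 19 of the 31 members (61.3%), in 17 of the 22 mitosis genes and in 41.1% of all genes. Member windows had a median G and C content of 57.5%, against 52.7% for all windows, and the shares were not adjusted for it. With a shorter E2F core, the same letters without the leading T, 21 members (67.7%) and 10.9% of all genes had a match. A match is a description of the letters and does not show that a factor binds there.

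**Figure D1:**
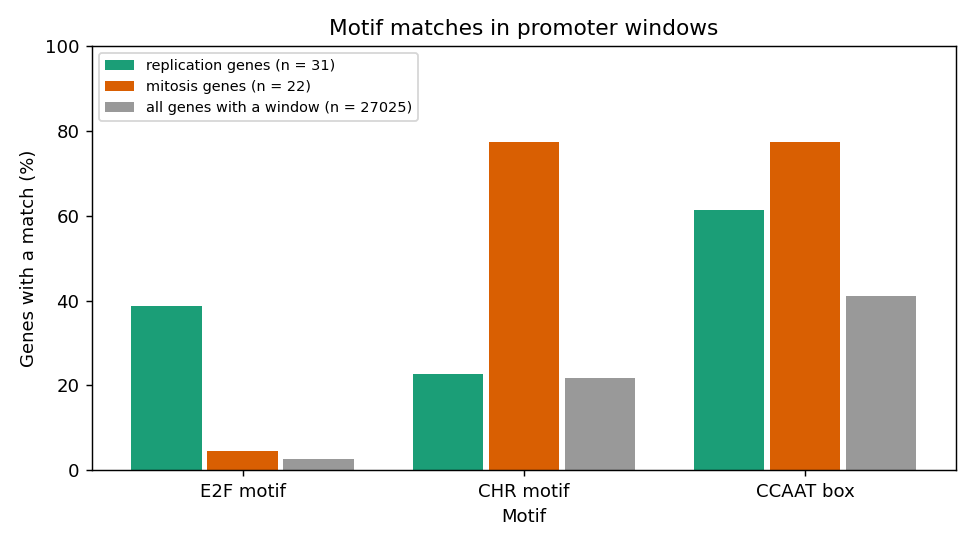
Share of genes (%) with at least 1 match to each motif on either strand in the RefSeq promoter window, for the replication genes, the mitosis genes and all genes with a window. The E2F bar is high for the replication genes (38.7%) and the CHR bar for the mitosis genes (77.3%).

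The count table held 61782358 to 71914179 estimated counts per library. Adcy7 itself was at 59.4 and 58.8 CPM (the gene's count scaled to the library's total) in the knockout libraries and at 122 and 125 CPM in the controls, or 48.4% of the control level (log2 fold change -1.05, SE 0.09, edgeR adjusted p = 4.24e-05). The transcript of the Rosa locus, Gt(ROSA)26Sor, stood at 3.11 and 4.14 CPM against 4.32 and 3.52 CPM, and did not pass (-0.10, SE 0.24). Over all 15832 tested genes 23.4% were lower in the knockout and 23.4% higher. Of 15 macrophage markers 13 were lower and 1 was higher, with sums of 23144 to 23362 CPM against 59226 to 61012 CPM. Most of that gap came from the lysozyme gene Lyz2, and without it the sums were 6704 to 6894 CPM against 8803 to 8868 CPM. Among the 15 markers, Csf1r, Adgre1 and Itgam stood at 69.2%, 60.8% and 54.9% of the control level, Cd68 did not pass and Cd14 rose 1.90-fold. The complement genes C1qa, C1qb and C1qc, markers of mature macrophages, were near 0 in both knockout libraries (at most 0.487 CPM), against 66.9 to 453 CPM in the controls. Aif1, Mertk and Mrc1 were also near 0 in the knockout libraries (at most 0.356 CPM). Several lists of other cells were higher there: 6 of 7 tested eosinophil genes (230.1 to 290.4 CPM summed, against 32.2 to 36.1), 7 of 8 mast cell and basophil genes (114 to 120 CPM, against 28.3 to 37.5) and 10 of 10 platelet and megakaryocyte genes (374 to 427 CPM, against 192 to 209). Il5ra and Fcer1a, defining receptors of eosinophils and of mast cells and basophils, had no count in either control. In the knockout libraries Il5ra had only 8 and 15 counts and Fcer1a 20 and 8, and neither gene passed the filter on low counts. The mast cell protease gene Cma1 had no count in any library. Stromal cell markers summed to 44.2 to 50.4 CPM against 2.13 to 3.04 CPM, with 3 of 6 higher. Most of the knockout sum came from Dcn (32.9 and 39.9 CPM), and the collagen genes Col1a1, Col1a2 and Col3a1 did not pass. Of 10 marrow progenitor markers 6 were higher, among them Kit (7.36-fold), Gata2 (7.80-fold) and Cd34 (2.20-fold), and 2, the granule genes Prtn3 and Mpo, were lower. Kit and Gata2 also stand in the mast cell and basophil list. Progenitor sums overlapped, at 274 to 293 CPM against 273 to 339 CPM in the control. Neutrophil markers were lower in 4 of 10 cases and higher in 1, with overlapping sums of 5945 to 7579 CPM against 6251 to 7519 CPM. Dendritic cell markers (4.56 to 5.71 CPM, against 10.1 to 12.6) were lower in 2 of 6 cases and higher in 2, and T and NK cell markers (2.51 to 2.95 CPM, against 3.48 to 4.29) were lower in 1 of 3. Erythroid markers (21.1 to 26.4 CPM, against 2.78 to 3.25) and B cell markers (38.4 to 41.1 CPM, against 27.1 to 28.1) were higher in 4 of 6 and 5 of 6 cases. The remaining tested B cell marker, Cd79b, was lower, at 15.7 and 17.3 CPM against 25.2 and 25.8 CPM, most of the control sum. Monocyte markers summed to 5919 to 6128 CPM against 4524 to 4793 CPM, although 5 of 7 were lower one by one and 2 were higher. The part of these other cells in the changes described next was not tested. In bulk RNA fewer cells in S phase and less of each mRNA per cell cannot be told apart.

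Replication and nucleotide synthesis genes were lower in the knockout as a block. Of the 36 members, 35 fell, none rose, and E2f1 alone did not pass (edgeR, Benjamini-Hochberg adjusted p, threshold 0.05). Among all 15832 tested genes, 23.4% fell by the same rule. Because the set was chosen with earlier results of these data known, its share is a description and was not tested. The median log2 fold change of the members was -1.66, against 0.01 over all tested genes. A fall of at least 2-fold was seen in 33 members and in 9.87% of tested genes. A log2 fold change of -2 or lower was seen in 7 members and in 4.34% of tested genes. In all 36 members both knockout libraries lay below both controls, which held for 37.8% of tested genes; with either group on top, the groups did not overlap in 75.2%. Summed over the members, the level was 741 and 764 CPM in the knockout and 2247 and 2148 CPM in the control. Tk1 (ENSMUSG00000025574, chromosome 11) lay lowest, at 17.0% of the control level, and E2f1 (ENSMUSG00000027490, chromosome 2) highest, at 83.0%. Whole 95% intervals lay below the members' median for 9 genes and above it for another 9, so the members did not all change by the same amount.

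**Figure D2:**
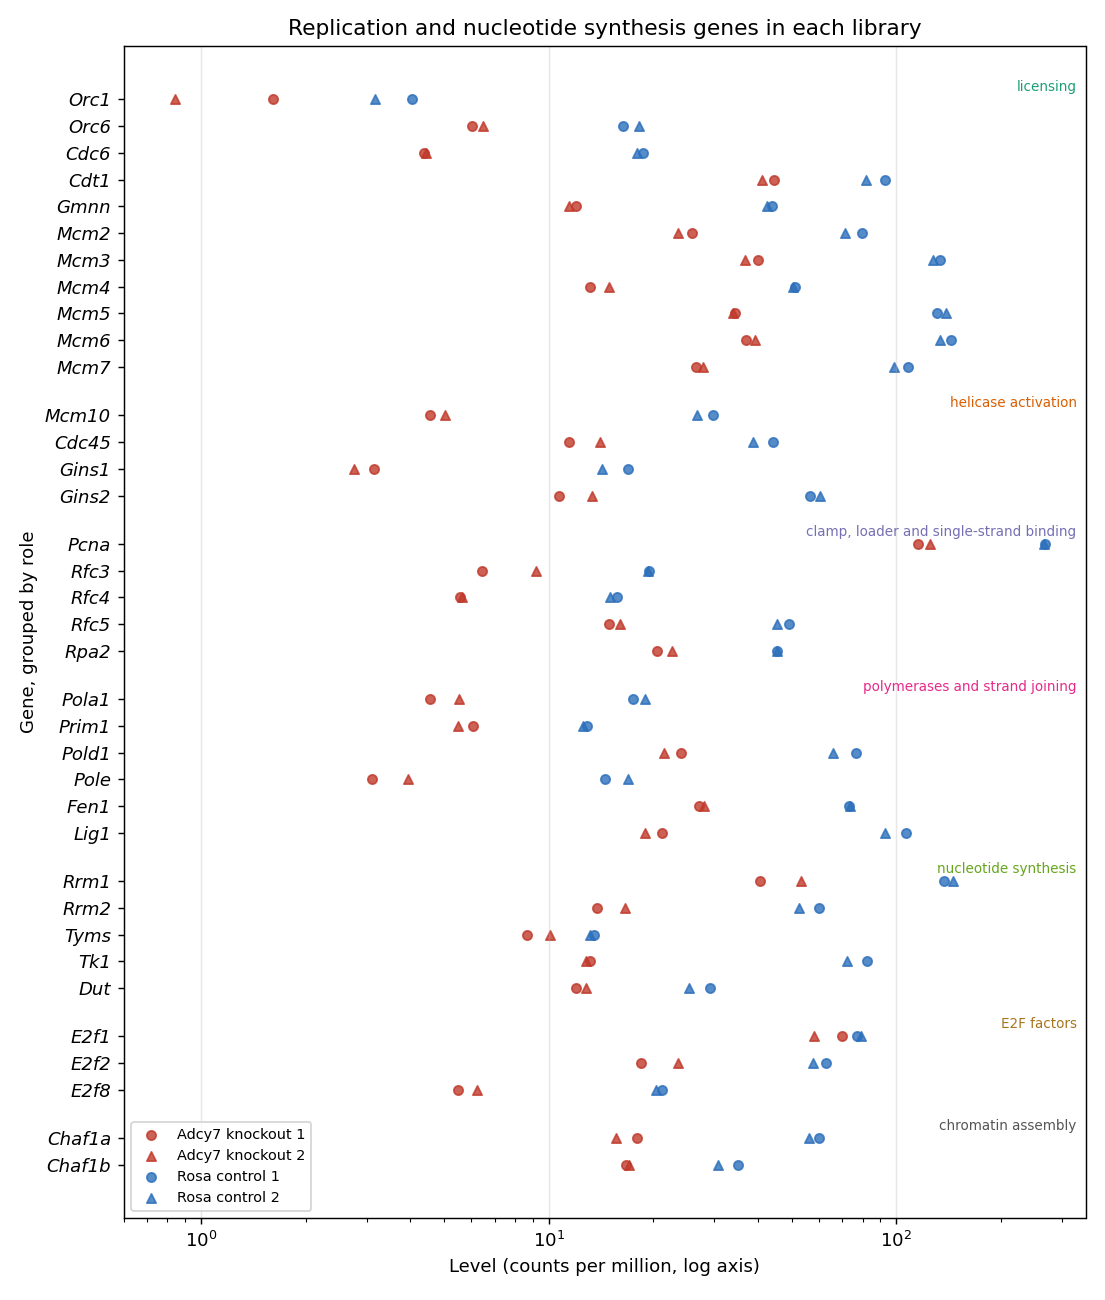
Level of each of the 36 genes in every library (CPM, log axis), grouped by role, with red for Adcy7 knockout and blue for Rosa control and a symbol for each replicate. Red points lie to the left of blue points in every row, and the gap is narrowest for E2f1 and Tyms.

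**Figure D3:**
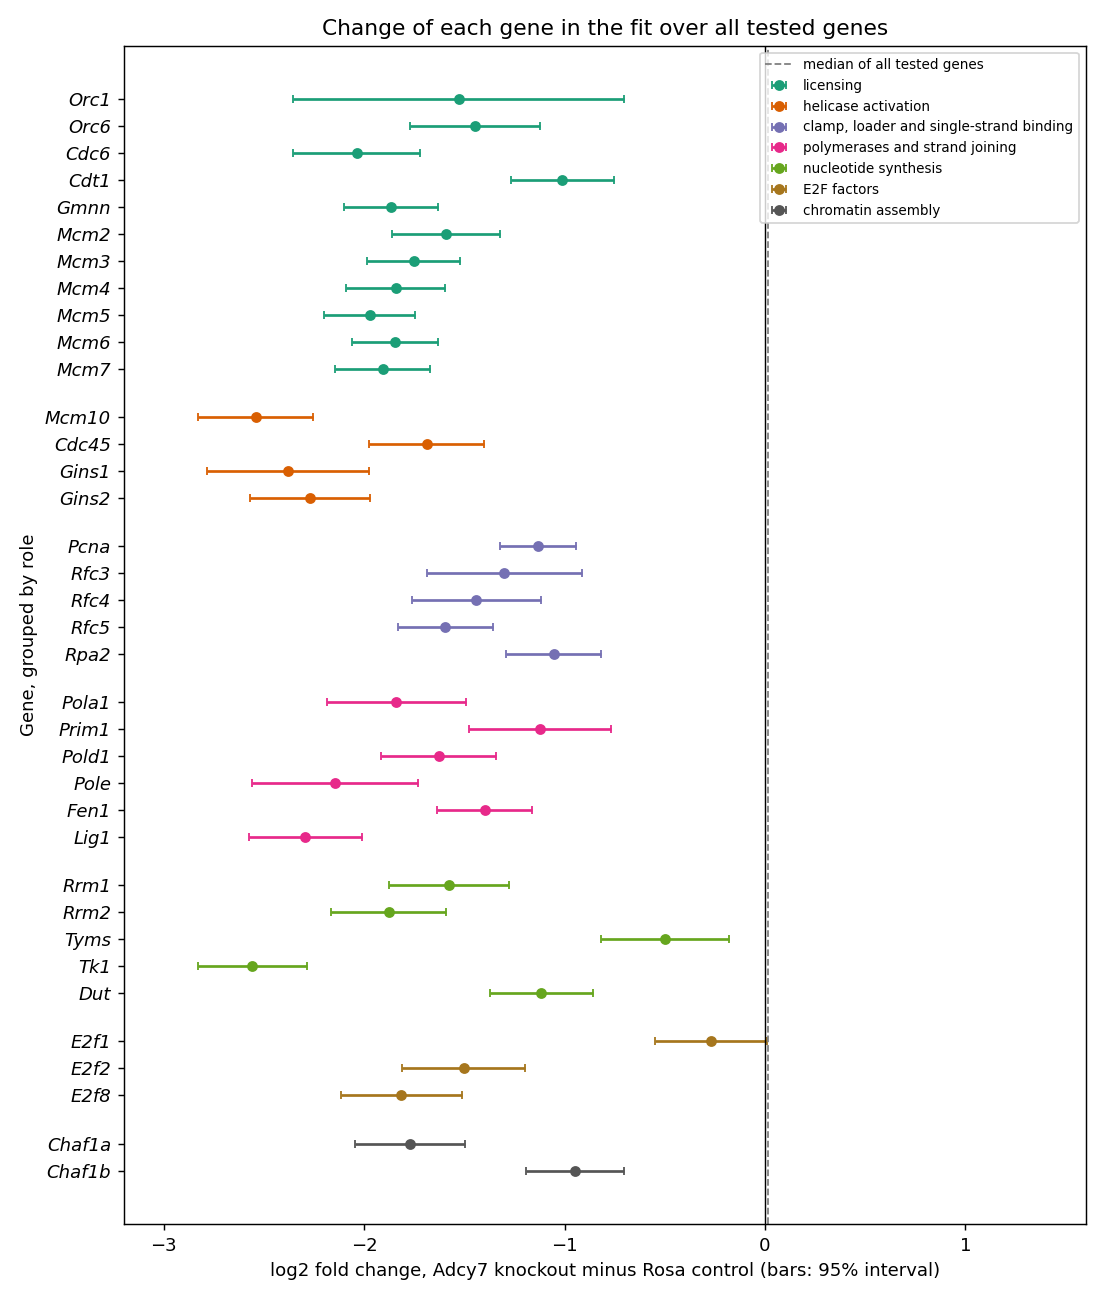
Log2 fold change (knockout minus control) of each gene with its 95% interval, coloured by role. All 36 estimates lie below 0, from -2.56 for Tk1 to -0.27 for E2f1, whose interval reaches 0.01.

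Licensing genes of the set all fell, 11 of 11, to between 24.3% and 49.6% of the control level (median log2 change -1.84). Of the origin recognition complex the set holds only Orc1 and Orc6. Orc2, Orc3, Orc4 and Orc5, given further below, did not pass. The 6 subunits of the MCM2-7 ring, the motor of the replicative helicase, were close to one another. Mcm5 was at 34.3 and 33.9 CPM in the knockout and at 131 and 139 CPM in the control (log2 fold change -1.97, SE 0.10, adjusted p = 2.35e-06). Mcm6 stood at 37.0 and 39.2 CPM against 143 and 134 CPM (-1.85, SE 0.09), and Mcm3 at 40.02 and 36.7 CPM against 134 and 128 CPM (-1.75, SE 0.10). In each of these the knockout pair was far below the control pair, and replicates differed little. Mcm7 was at 26.6 and 27.9 CPM against 108 and 98.5 CPM (-1.91, SE 0.10). Mcm4 had 13.1 and 14.9 CPM against 51.2 and 50.4 CPM (-1.84, SE 0.11). Mcm2, with 25.9 and 23.6 CPM against 79.8 and 71.0 CPM, had the smallest change of the 6 (-1.59, SE 0.12). The 95% intervals of all 6 share the range from -1.86 to -1.75, and the differences between subunits were not tested.

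Per kilobase of annotated exon, the ring subunits kept their order between groups. Control levels were 34.9 CPM per kb for Mcm3, 33.9 for Mcm5, 29.7 for Mcm6, 23.3 for Mcm7, 14.2 for Mcm4 and 10.8 for Mcm2. In the knockout they were 10.2, 8.55, 8.16, 6.15, 3.91 and 3.56 CPM per kb in the same order. Exon lengths came from GENCODE M21 (GRCm38) and not from the annotation behind the counts. Each length is the union of exons over all annotated transcripts of the gene, 6956 bases for Mcm2 and 3589 for Mcm4. The order between subunits depends on these lengths.

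The loaders of the ring fell by unequal amounts. Cdc6, the ATPase that brings MCM to the origin, was at 4.39 and 4.43 CPM in the knockout and at 18.7 and 17.99 CPM in the control (log2 fold change -2.04, SE 0.14). Cdt1, its partner, was at 44.6 and 41.1 CPM against 93.0 and 81.8 CPM (-1.01, SE 0.11). Gmnn, whose protein geminin blocks Cdt1 after S phase has begun, was at 12.0 and 11.4 CPM against 43.8 and 42.4 CPM (-1.87, SE 0.10). The 95% interval of Cdt1 (-1.27 to -0.75) did not overlap those of Cdc6 (-2.35 to -1.72) and Gmnn (-2.10 to -1.63), although the differences between genes were not themselves tested. Orc6, a subunit of the origin recognition complex, had 6.03 and 6.49 CPM against 16.3 and 18.2 CPM (-1.45, SE 0.14). Orc1, the subunit that varies most over the cell cycle, had the fewest counts of all members, at 1.61 and 0.842 CPM against 4.04 and 3.18 CPM. Its log2 fold change of -1.53 had an SE of 0.36 (adjusted p = 0.00863), the widest among the 36, and rested on 52 counts in knockout replicate 2.

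Helicase activation genes showed the lowest role median, a log2 fold change of -2.33, and all 4 fell. Mcm10, which helps the loaded helicase to open the DNA, was at 4.56 and 5.05 CPM in the knockout and at 29.8 and 26.7 CPM in the control, or 17.2% of the control level (95% interval 14.1% to 21.0%). Gins1 had 3.16 and 2.75 CPM against 17.0 and 14.2 CPM (-2.38, SE 0.18), and Gins2 had 10.7 and 13.3 CPM against 56.5 and 60.3 CPM (-2.27, SE 0.13). Both code for subunits of the same 4-part complex, and their folds were alike. Cdc45, the third component of the active helicase, stood at 11.4 and 14.1 CPM against 44.2 and 38.8 CPM (-1.69, SE 0.13). For Gins2, 67.3% of its annotated exon bases overlap Gse1 on the other strand. Gse1 had 5145 and 3913 counts in the knockout and 2416 and 1827 in the control, opposite in direction to Gins2, and without a stranded count the reads of such pairs cannot be told apart.

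Clamp, loader and single-strand binding genes fell in 5 of 5 cases but by less, with a median of -1.30. Pcna, the sliding clamp that holds polymerases on DNA, was the member with the highest level per kilobase in both groups (111 CPM per kb in the control, 50.2 in the knockout). It was at 116 and 125 CPM in the knockout and at 267 and 266 CPM in the control (-1.13, SE 0.08, 45.6% of control). Rfc3, Rfc4 and Rfc5 code for small subunits of the clamp loader. Rfc5 was at 14.9 and 16.0 CPM against 49.2 and 45.4 CPM (-1.60, SE 0.10), and Rfc4 at 5.58 and 5.65 CPM against 15.8 and 15.0 CPM (-1.44, SE 0.14). Rfc3 had the least even knockout pair, 6.44 and 9.18 CPM, with controls at 19.4 and 19.3 CPM (-1.30, SE 0.17). Rpa2, part of the complex that coats single-stranded DNA and also serves in repair, was at 20.6 and 22.7 CPM against 45.3 and 45.4 CPM (-1.05, SE 0.10).

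Polymerase and strand-joining genes fell in 6 of 6 cases, to between 20.4% and 45.9% of the control level. Lig1, the ligase that seals Okazaki fragments, was lowest, at 21.2 and 19.0 CPM in the knockout and at 107 and 92.8 CPM in the control (-2.29, SE 0.12). Fen1, the nuclease that trims the flaps of the same fragments, was at 27.03 and 28.1 CPM against 73.3 and 73.4 CPM (-1.40, SE 0.10). Of the exon bases of Fen1, 78.8% overlap the antisense gene Gm10143, which had 18 to 60 counts in any library. The 95% intervals of Lig1 and Fen1, -2.58 to -2.01 and -1.64 to -1.16, did not overlap. Pole, the catalytic subunit of the leading-strand polymerase, had 3.11 and 3.93 CPM against 14.5 and 16.9 CPM (-2.15, SE 0.18). Pold1, its lagging-strand counterpart, had 24.0 and 21.4 CPM against 76.4 and 65.8 CPM (-1.63, SE 0.12). These catalytic subunits thus kept 22.6% and 32.3% of the control level, with overlapping intervals. Pola1 and Prim1 code for the polymerase and primase subunits of the complex that starts each new strand. Pola1 was at 4.56 and 5.52 CPM against 17.5 and 18.9 CPM (-1.84, SE 0.15). Prim1 was at 6.06 and 5.49 CPM against 12.9 and 12.5 CPM (-1.12, SE 0.15), the smallest change in this role.

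Nucleotide synthesis genes spanned a wide range, from 17.0% to 70.8% of the control level, and all 5 fell. Tk1, the S phase thymidine kinase of the salvage pathway, went from 82.6 and 72.0 CPM in the control to 13.1 and 12.8 CPM in the knockout (-2.56, SE 0.12, adjusted p = 1.59e-06). Tyms, which makes thymidylate de novo, was at 8.68 and 10.1 CPM in the knockout and at 13.5 and 13.2 CPM in the control (-0.50, SE 0.14, adjusted p = 0.0181). The 95% intervals of these thymidylate genes, -2.83 to -2.29 and -0.82 to -0.18, were far apart. Tyms no longer passed without control replicate 1 (adjusted p = 0.0855) or without control replicate 2 (adjusted p = 0.0755). Ribonucleotide reductase, which turns ribonucleotides into deoxynucleotides, is made of a large and a small subunit. The large subunit gene Rrm1 was at 40.6 and 53.1 CPM against 137 and 145 CPM (-1.58, SE 0.13). Rrm2, the S phase small subunit gene, was at 13.8 and 16.6 CPM against 59.9 and 52.6 CPM (-1.88, SE 0.12). Dut, which removes dUTP and keeps uracil out of DNA, was at 12.0 and 12.8 CPM against 29.0 and 25.3 CPM (-1.12, SE 0.11).

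E2F factor genes divided. E2f1, an activating member of the family, was at 69.9 and 58.2 CPM in the knockout and at 77.1 and 79.0 CPM in the control. Both knockout values were below both controls, but the log2 fold change of -0.27 (SE 0.12, 95% interval -0.55 to 0.01) did not pass (adjusted p = 0.104). Without knockout replicate 1 it was -0.43 and passed (adjusted p = 0.00792). E2f2, the other activating member listed, fell from 62.8 and 57.4 CPM to 18.5 and 23.6 CPM (-1.50, SE 0.13). E2f8, an atypical repressor that is itself an E2F target, fell from 21.2 and 20.3 CPM to 5.48 and 6.22 CPM (-1.81, SE 0.13). The 95% intervals of E2f2 and E2f8 lay wholly below that of E2f1.

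The pair that deposits histones behind the fork also differed in size. Chaf1a, the large subunit gene of chromatin assembly factor 1, was at 17.9 and 15.7 CPM in the knockout and at 59.8 and 56.3 CPM in the control (-1.77, SE 0.12). Chaf1b, the middle subunit gene, was at 16.7 and 17.0 CPM against 35.03 and 30.7 CPM (-0.95, SE 0.11), and the 95% intervals did not overlap. Of the annotated exon bases of Chaf1a, 52.5% overlap Ubxn6 on the other strand, which had 6141 and 4829 counts in the knockout and 3121 and 3551 in the control. In all, 13 of the 36 members share exon bases with another annotated gene.

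**Figure D4:**
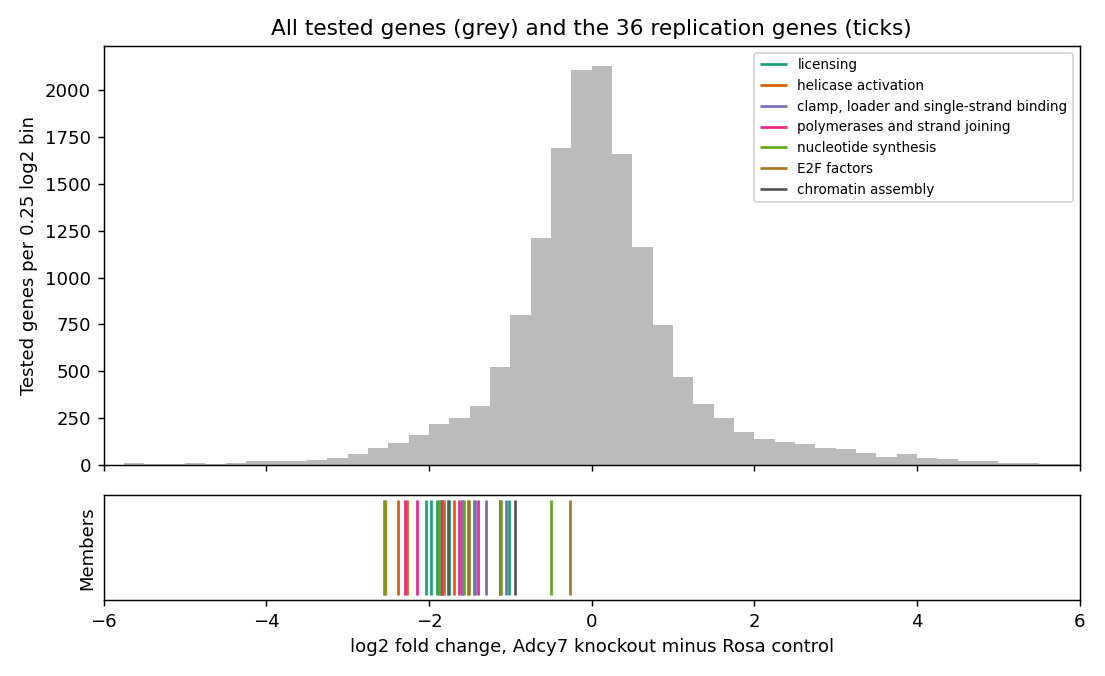
Histogram of the log2 fold change (knockout minus control) of all tested genes in bins of 0.25, with the 36 replication genes as ticks below, coloured by role. The axis ends at -6 and 6, and 346 tested genes lie beyond it. The ticks lie left of 0, with 10 of the 36 below -1.87, the bound of the lowest 5% of tested genes.

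Other genes of the pathway were counted in lists chosen by function, to be read against the 23.4% of all tested genes that fell and the 23.4% that rose. Of 23 further fork and polymerase genes 20 fell and 2 rose (median log2 change -0.97). Timeless, which protects the moving fork, fell to 17.4% of the control level, from 28.1 CPM ± 3.71 to 4.82 CPM ± 0.722 (SD, n = 2 each). Uhrf1, which guides DNA methylation to new strands, fell to 23.1%, and Top2a and the clamp loader subunit Rfc2 fell to 29.9% and 47.7%. Pole4, an accessory subunit of the leading-strand polymerase, rose 1.68-fold, and the topoisomerase gene Top1 rose 1.35-fold, whereas Dna2 had a log2 fold change of -0.06 (SE 0.15). Of 17 further origin and helicase genes 9 fell and 1 rose. Topbp1, Wdhd1, Ticrr and Mcm8 fell to between 33.5% and 37.3%, and Mcm9 rose 1.55-fold. The origin recognition subunits Orc2, Orc3, Orc4 and Orc5 did not pass. Their log2 changes were 0.08 (SE 0.19), 0.05 (SE 0.16), 0.32 (SE 0.18) and 0.06 (SE 0.13), in that order. Of 12 genes of fork-linked chromatin and cohesion 9 fell and none rose. The histone chaperone genes Asf1b and Nasp fell to 22.9% and 43.8%, the histone acetyltransferase gene Hat1 to 33.3% and Chtf18 to 29.0%. Rbbp4, the small subunit gene of chromatin assembly factor 1, stood at 193 CPM ± 4.07 in the control and at 196 CPM ± 5.51 in the knockout (SD, n = 2 each), and Supt16 had a log2 fold change of -0.05 (SE 0.10).

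Upstream nucleotide metabolism changed in both directions, and its counts stand beside 23.4% lower and 23.4% higher among all tested genes. Among 13 genes of purine synthesis 5 fell, 2 rose and 6 did not pass (median log2 change -0.14). Impdh2, the gate to guanine nucleotides, fell to 36.6% of the control level, and Prps2, Paics and Adssl1 fell to 43.6%, 47.5% and 51.1%. Adsl and Gart rose 1.31-fold and 1.25-fold, while Impdh1 and Atic had log2 fold changes of -0.14 (SE 0.10) and 0.11 (SE 0.14). Of 5 genes of pyrimidine synthesis de novo only Ctps passed, at 66.5% of control (adjusted p = 0.0212), a share close to the 23.4% of tested genes that fell. It lost that call without knockout replicate 1 and without either control replicate, and Umps and Ctps2 had log2 fold changes of 0.13 (SE 0.10) and -0.11 (SE 0.10). Of 18 other deoxynucleotide genes 8 fell, 3 rose and 7 did not pass, so that rises were no more frequent than among all tested genes (23.4%). The deoxycytidine kinase gene Dck, of the salvage pathway, averaged 127 CPM ± 6.78 in the control but 15.8 CPM ± 1.82 in the knockout (SD, n = 2 each), or 12.6% of the control level (adjusted p = 7.19e-07). Samhd1, which breaks down deoxynucleotides in cells that do not divide, fell to 38.0%, and the mitochondrial kinase gene Dguok and the nucleotide kinase gene Cmpk1 fell to 43.6% and 64.8%. Rrm2b, the small reductase subunit that serves outside S phase, rose 1.72-fold, in the opposite direction to Rrm2, from 3.74 CPM ± 0.194 to 6.40 CPM ± 1.97 (SD, n = 2 each, adjusted p = 0.0296). Mthfd2 and Nme1 rose 1.22-fold and 1.32-fold, and Nme2 and Shmt2 did not pass, with log2 fold changes of -0.17 (SE 0.09) and -0.11 (SE 0.12).

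Regulators of the G1 to S step were lower in 14 of 19 cases and higher in 1, against 23.4% each way among all tested genes. Ccnd1, the cyclin that starts E2F release, averaged 451 CPM ± 22.4 in the control but 8.80 CPM ± 0.097 in the knockout (SD, n = 2 each), or 1.97% of the control level. Ccnd2 and Ccna2 fell to 25.1% and 21.5%, and the inhibitor gene Cdkn2c fell to 16.7%. Cdkn2b, an inhibitor of the cyclin D kinases, rose 2.69-fold, from 1.43 CPM ± 0.168 to 3.80 CPM ± 0.407 (SD, n = 2 each). Their kinase gene Cdk4 and the inhibitor gene Cdkn1b did not pass (-0.12, SE 0.10, and -0.38, SE 0.17). Among 16 other genes of the E2F family, pocket proteins and the DREAM complex 11 fell and none rose. Foxm1, Mybl2, Rbl1 and the repressor gene E2f7 fell to 21.4%, 39.3%, 45.3% and 30.4%, while E2f4 and E2f3 had log2 fold changes of -0.17 (SE 0.12) and -0.05 (SE 0.12). Of 20 genes of the replication stress checkpoint and fork repair 11 fell and 3 rose, the latter again no more frequent than among all tested genes. Fancd2, a gene of crosslink repair, fell to 25.5% of the control level and the checkpoint kinase gene Wee1 to 41.6%. Rad17, Nbn and Hus1, which help to load or sense the checkpoint clamp and DNA ends, rose 1.46-fold, 1.497-fold and 1.37-fold, and Rad9a had a log2 fold change of -0.17 (SE 0.11). Atrip, the partner of the checkpoint kinase ATR, had control values of 41.3 and 16.6 CPM, so its log2 fold change of -0.40 carried an SE of 0.35. All 25 mitosis genes fell, with a median of -1.91, and Ccnb2, Birc5, Ube2c and Aurkb were at 13.9% to 20.9% of the control level.

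**Figure D5:**
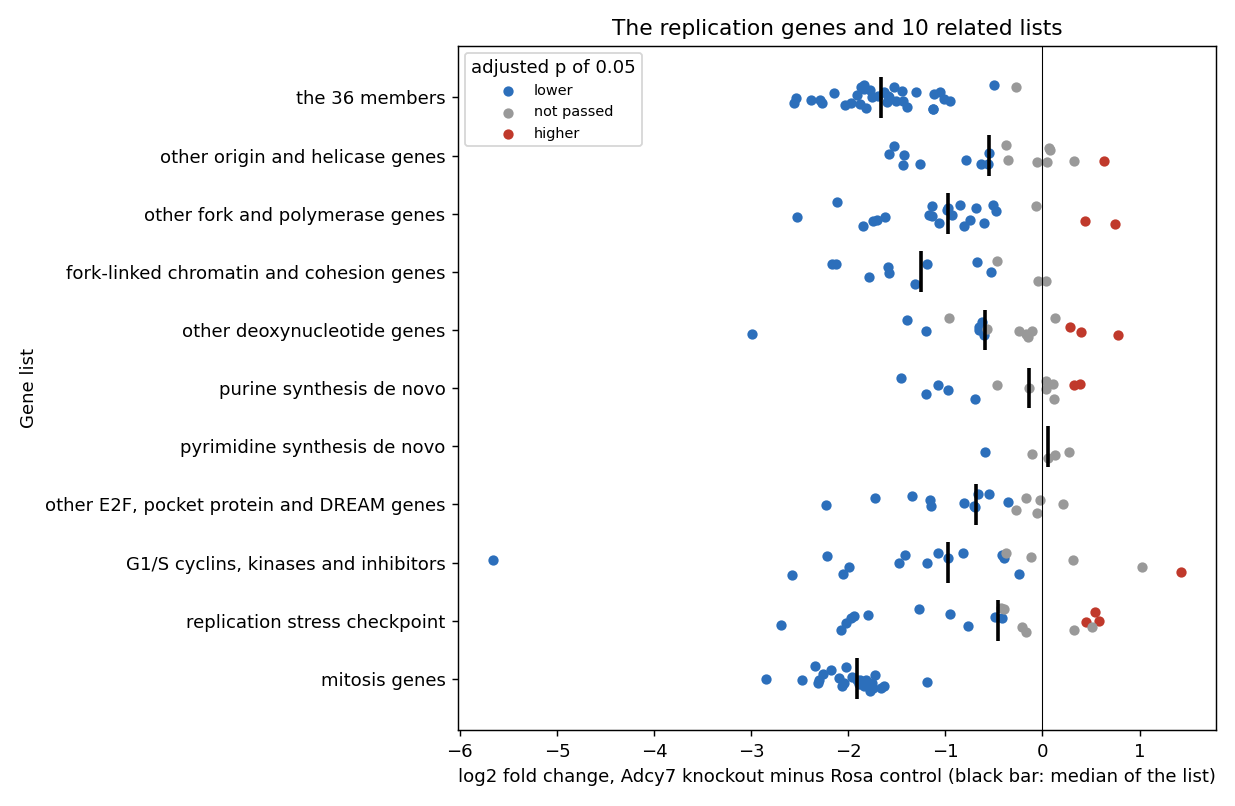
Log2 fold change (knockout minus control) of every gene in the 36-gene set and in 10 related lists, each point a gene, coloured by whether it passed an adjusted p of 0.05, with a black bar at the list's median. The replication and mitosis genes lie left of 0 throughout, and the purine and pyrimidine lists straddle it.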

How the data were processed

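RNA-seq of 4 libraries was analysed, 2 of Adcy7 knockout and 2 of Rosa control. Values deposited by the authors are estimated counts (expected counts), 1 row per Ensembl gene, in whole numbers and without visible normalization. The tools named, per the submitters' processing notes, are StringTie, HISAT2, fastp and edgeR, with build GRCm39. Tool versions, settings, annotation release and strand handling: not given in the sources used here. Multiples of 4 made up 30.5% to 32.2% of the values between 1 and 40 in each library, where an even spread would give 1 in 4. Whether 1 fragment is worth about 4 counts was not tested. If so, the depth in fragments is smaller than the totals of 61782358 to 71914179 counts.

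Column names were matched to titles by target and replicate number. Symbols came from GENCODE M21 (55141 of 55401 IDs). Genes kept by filterByExpr (15832) were tested with edgeR 4.0.16 in R 4.3.3 (TMM scaling, quasi-likelihood, 2 residual degrees of freedom, Benjamini-Hochberg over all tested genes, threshold 0.05). SE is the log2 fold change divided by the root of F, and 95% intervals use the total degrees of freedom. The test recovered known changes in simulated counts with 200 changed genes and a common dispersion. That is far fewer changed genes than were called in these data, so the simulation does not cover a setting like this. Alternatives used DESeq2 1.42.0, limma 3.58.1, other scalings and filters, and each library left out. The members and lists were chosen with earlier results of these data known. The text names all members, Adcy7 and Gt(ROSA)26Sor, and from each list up to 4 called genes with the smallest adjusted p, up to 4 called in the opposite direction and up to 2 that did not pass, with a few of these not reported here.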

Additional observations from a re-analysis of the deposited data

How the results depend on the processing

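The labels do not say whether the replicate numbers pair the libraries. Deviations of same-numbered libraries from their group means correlated at 0.02 across genes, which with 2 libraries per group cannot decide it. With the replicate number as a block, 35 members still fell and 7045 genes passed in place of 7400. All 36 members kept their direction under each of the 15 alternatives, and 35 fell in each except those named next. Tyms lost its call without either control replicate, E2f1 gained one without knockout replicate 1, and Tyms and Chaf1b fell short of a 2-fold change. Requiring 2-fold left 3314 genes, 1563 lower and 1751 higher, and 75 of the 166 genes of the other lists in place of 124. By list it left 5 lower among other origin and helicase genes, 10 among other fork and polymerase genes, 3 among other deoxynucleotide genes, 3 of purine and 0 of pyrimidine synthesis, 5 of the E2F and DREAM list, 9 of G1/S regulators and 7 of the replication stress list. Leaving out 1 library gave 0 to 1 pyrimidine genes lower. The 7-base E2F core was present in 67.7% of members, against 38.7% with 8 bases. Scaling moved the median of all genes by less than 0.1. Robust dispersion estimates were added after seeing the data and changed no member's call. The lowest member count, 52 for Orc1, limits that gene most.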
